A study of Mus musculus with 5 samples.

Results

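The granzymes and cytotoxic granule genes were 8 of the 19938 genes measured in sorted mouse lung natural helper cells. They were the granzyme genes Gzma, Gzmb, Gzmc, Gzmk and Gzmm, perforin (Prf1), serglycin (Srgn) and Fas ligand (Fasl), taken by name. Each of the 8 was measured by a single probe set that the array platform's annotation gives to that gene alone. Natural helper cells, now counted among group 2 innate lymphoid cells (ILC2), were sorted from lungs of C57Bl/6 mice, naive and 6 to 8 weeks old, as lineage-negative, Sca-1-positive cells with c-Kit absent or low, positive for CD127 and CD25. In 3 samples RNA was taken straight after the sort (unstimulated). The other 2 samples were cultured first, for 3 days, with PMA at 60 ng/ml, an activator of protein kinase C, and ionomycin at 500 ng/ml, a calcium ionophore, in a volume of 200 microlitres (stimulated). All 5 arrays therefore hold cells of the same strain and sort. No sample was cultured without PMA and ionomycin, so culture and stimulation cannot be told apart.

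Cytotoxic lymphocytes kill by releasing granules. Perforin opens the membrane of the target cell, and granzymes, a family of serine proteases, enter and cleave proteins that start cell death. Serglycin is the proteoglycan that holds granzymes and perforin inside the granule, and Fas ligand is a membrane protein that triggers death through the Fas receptor of the target. These genes are best known from natural killer (NK) cells and cytotoxic T cells, while ILC2 are known for type 2 cytokines.

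The deposited values are log2 expression values, and differences are stimulated minus unstimulated on that scale, so a difference of 1 is a doubling. Arrays of 1 group correlated at r = 0.980 to 0.989 over all probe sets, and arrays of different groups at 0.956 to 0.969. Of the 16 genes listed as ILC2 markers, 13 were measured, with a mean log2 value of 9.76 to 9.97 on the unstimulated and 9.30 to 9.38 on the stimulated arrays. In the test described below, 4 of the 13 fell (Il7r, Rora, Kit and Il17rb) and 0 rose, where 0.963% of all genes fell and 0.737% rose. In 4 of the 13 (Il2ra, Il5, Il13 and Arg1) both stimulated arrays lay above all unstimulated ones, and in 7 below, against 18.6% and 14.0% of all genes. The summed linear level of 10 lung epithelial genes was 957 to 3398 unstimulated and 651 to 758 stimulated, and that of 9 endothelial and stromal genes 705 to 2113 and 545 to 609. Bright genes, such as Scgb1a1 in the first list, weigh most in these sums. No gene of these 2 lists passed the test, and their part in the results was not tested. Xist, an RNA made from the inactive X, read 9.09, 10.20 and 9.66 unstimulated against 4.16 and 4.11 stimulated. The labels give no sex of the mice, so sex cannot be told apart from treatment. The labels also do not say whether the replicates came from separate mice, and p-values then cover only the spread seen among these arrays, which may be technical.

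The 250 bases before the start of Gzmb, Gzmc, Gzma and Fasl are shown because these genes had the largest differences between or within the groups. They come from RefSeq on GRCm38.p6, run 5′ to 3′ on the gene's strand and end at the base before the start, and the capitals mark the motif matches. Gzmb starts on chromosome 14, Gzmc beside it, Gzma on chromosome 13 and Fasl on chromosome 1, all on the minus strand, with windows at chr14:56262335-56262584, chr14:56234658-56234907, chr13:113100982-113101231 and chr1:161788496-161788745.
Gzmb: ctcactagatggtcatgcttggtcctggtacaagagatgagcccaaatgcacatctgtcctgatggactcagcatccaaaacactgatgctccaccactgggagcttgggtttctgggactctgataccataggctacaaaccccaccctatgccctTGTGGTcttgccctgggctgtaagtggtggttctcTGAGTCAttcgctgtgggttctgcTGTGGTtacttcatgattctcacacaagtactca
Gzmc: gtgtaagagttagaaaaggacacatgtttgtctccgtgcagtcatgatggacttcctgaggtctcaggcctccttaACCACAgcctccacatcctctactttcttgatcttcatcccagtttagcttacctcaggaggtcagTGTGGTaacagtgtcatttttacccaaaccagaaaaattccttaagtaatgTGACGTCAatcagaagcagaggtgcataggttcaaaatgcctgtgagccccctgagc
Gzma: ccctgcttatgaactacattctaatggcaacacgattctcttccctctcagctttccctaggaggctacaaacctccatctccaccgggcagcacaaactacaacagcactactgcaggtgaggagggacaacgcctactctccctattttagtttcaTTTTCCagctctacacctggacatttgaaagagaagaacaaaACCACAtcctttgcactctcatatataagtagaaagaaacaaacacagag
Fasl: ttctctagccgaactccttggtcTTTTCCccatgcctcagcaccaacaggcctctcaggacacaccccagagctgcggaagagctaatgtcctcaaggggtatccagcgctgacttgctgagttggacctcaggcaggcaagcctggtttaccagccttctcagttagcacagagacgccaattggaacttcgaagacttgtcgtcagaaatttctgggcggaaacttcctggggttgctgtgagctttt
The letters searched on both strands were TGANTCA (AP-1), TGACGTCA (CRE), GGAAAA (named NFAT core here), TGTGGT (RUNX) and GGTGTGA (T-box), a choice made after the expression values were seen. The shorter NFAT string GGAAA was not searched, and it can stand unmarked in a window, as near the end of that of Fasl. None of these strings lies inside another. PMA and ionomycin are known to act on AP-1 and NFAT. The Gzmb window held an AP-1 match at -58 to -52 from the start and RUNX matches at -93 to -88 and -34 to -29. The Gzmc window held a CRE match at -57 to -50 and RUNX matches at -174 to -169 and -108 to -103. In the Gzma window there was an NFAT core at -92 to -87 and a RUNX match at -50 to -45, and in the Fasl window an NFAT core at -227 to -222. Among 32851 promoter windows of the same length, 6.75% held the AP-1 letters, 1.55% the CRE, 20.4% the NFAT core, 14.0% the RUNX and 3.33% the T-box letters. Of the 10 windows of the 8 genes, Gzmk and the second Gzmm window held a T-box match. The first Gzmm window and the second Srgn window each held an NFAT core and a RUNX match, and the Prf1 window held a RUNX match. Such matches thus also stood before genes that were not picked for their differences. A match describes the letters only.

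The question the arrays address here is which cytotoxic granule genes differed after 3 days with PMA and ionomycin. Fas ligand was higher on both stimulated arrays than on any unstimulated one, at 2.96-fold between the means, and perforin was 1.45-fold higher. Granzymes B and C were high on 1 stimulated array. On the other, granzyme B was modestly above the unstimulated values (6.79 against 6.40 to 6.44), and granzyme C was near its unstimulated level. Granzyme A differed as much within each group as between them, and granzymes K and M and serglycin differed by at most 0.11 in either direction. None of the 8 genes was called higher or lower at a Benjamini-Hochberg adjusted p under 0.05 in limma, where 0.737% of all genes were called higher (147), 0.963% lower (192) and 1.70% in either direction. In 4 of the 8 (Gzmb, Prf1, Srgn and Fasl) both stimulated arrays lay above all unstimulated ones, against 18.6% of all genes. None lay wholly below, against 14.0% of all genes, and 32.5% of all genes did not overlap in either direction. The median difference of the 8 genes was 0.30, and that of all genes was 0.00.

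**Figure D1:**
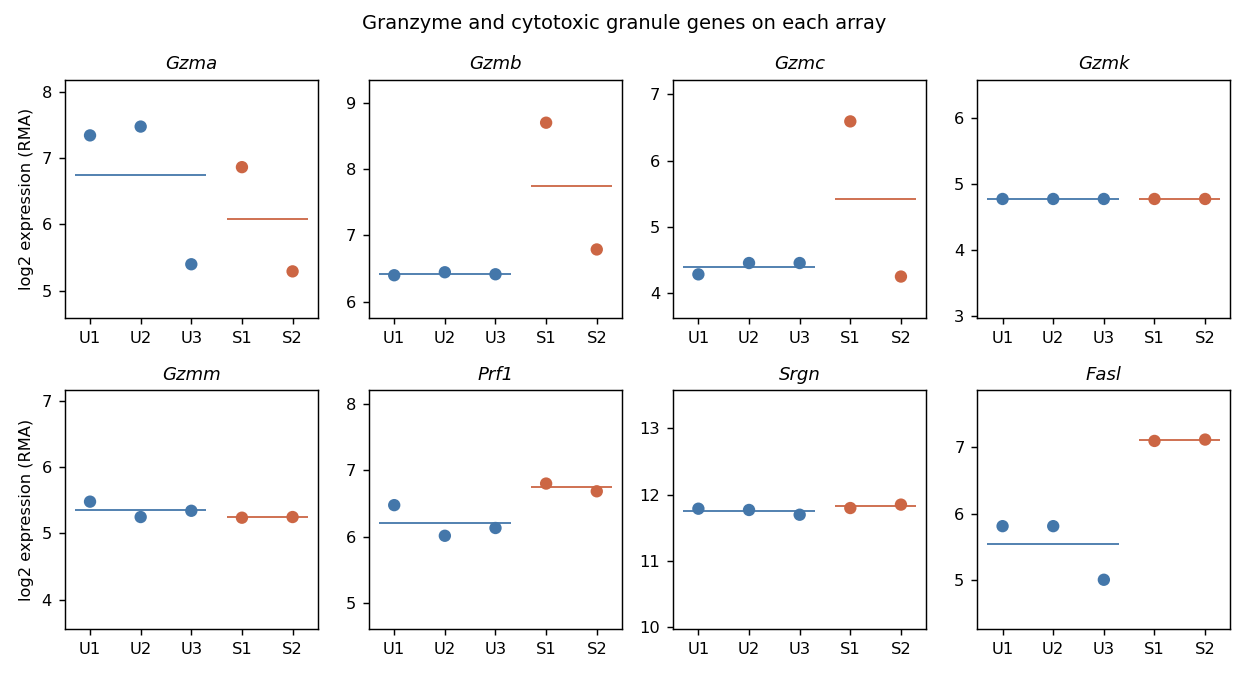
Deposited log2 value (vertical axis) of each of the 8 genes on unstimulated arrays U1 to U3 (blue) and stimulated arrays S1 and S2 (orange), with a horizontal line at each group mean and panels that span equal ranges. Fasl is higher on both stimulated arrays (7.10 and 7.12), while Gzmb and Gzmc are high on S1 (8.70 and 6.59) and far lower on S2 (6.79 and 4.25).

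Perforin (probe set 10363475) read 6.48, 6.01 and 6.13 on the unstimulated arrays and 6.80 and 6.68 on the stimulated ones. The lowest stimulated value lay above the highest unstimulated one. The means were 6.21 ± 0.24 (SD, n = 3) and 6.74 ± 0.08 (SD, n = 2), a difference of 0.54 ± 0.17 (SE, 95% interval 0.05 to 1.02) that did not pass after adjustment in limma (adjusted p = 0.213). Serglycin (probe set 10369615), the packing proteoglycan, read 11.79, 11.77 and 11.70 unstimulated and 11.80 and 11.85 stimulated. The groups did not overlap, but the difference was 0.07 ± 0.04 (SE, 95% interval -0.04 to 0.18, limma adjusted p = 0.437). The interval leaves room for little change in the measured serglycin value in either direction.

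Granzyme B (probe set 10420308), which cleaves proteins after aspartate and activates caspases, read 6.40, 6.44 and 6.41 unstimulated, then 8.70 and 6.79 stimulated. Both stimulated values were higher, yet they lay 1.91 apart while the 3 unstimulated values spanned 0.05. The means were 6.42 ± 0.02 (SD, n = 3) and 7.74 ± 1.35 (SD, n = 2). The difference was 1.33 ± 0.65 (SE, 95% interval -0.54 to 3.19, limma adjusted p = 0.405), or 2.51-fold. It was 0.37 without stimulated array 1 (adjusted p = 0.0545) and 2.28 without stimulated array 2 (adjusted p = 0.0244). Each of these fits has a lone stimulated array, which is assumed to vary like the unstimulated ones, and the gap between the 2 stimulated arrays goes against that for Gzmb. Every other fit that leaves out a stimulated array makes the same assumption.

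Granzyme C (probe set 10420302), a granzyme of the same gene cluster, read 4.28, 4.45 and 4.45 unstimulated and 6.59 and 4.25 stimulated. The second stimulated value was the lowest of the 5 and the first the highest, so the groups overlapped. All but that highest value were below 4.49, the first quartile over all probe sets and arrays, where dim probe sets cannot be set apart from background. The difference was 1.02 ± 0.79 (SE, 95% interval -1.27 to 3.32, limma adjusted p = 0.500). Without stimulated array 1 it turned to -0.15 (adjusted p = 0.660), and without stimulated array 2 it was 2.20 (adjusted p = 0.0327), both with a lone stimulated array and against unstimulated values in that dim range.

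Gzmb and Gzmc end a row of 7 granzyme genes that RefSeq places side by side on chromosome 14, in the order Gzme, Gzmd, Gzmg, Gzmn, Gzmf, Gzmc and Gzmb. The other 5 granzymes are mouse genes of the same family. Among them 0 of 5 passed the test, where 1.70% of all genes passed in either direction. Their median difference was 0.03, and 4 of 5 lay under the first quartile of all values on all 5 arrays. Gzmd (probe set 10420274) read 3.82, 3.89 and 3.76 unstimulated and 5.34 and 3.40 stimulated. Its stimulated values were again the highest and the lowest of the 5, with a difference of 0.55 ± 0.66 (SE, limma adjusted p = 0.654). That difference was -0.42 without stimulated array 1 (adjusted p = 0.154) and 1.52 without stimulated array 2 (adjusted p = 0.0320), again with a lone stimulated array. All but the highest Gzmd value were below the first quartile, so the size of these differences is uncertain. Gzme read 3.74, 3.74 and 3.68 against 4.08 and 3.74, with a difference of 0.19 ± 0.12 (SE, adjusted p = 0.472). Gzmf and Gzmn moved by at most 0.09 between the group means, and Gzmg held 1 value, 3.28, on all arrays. Granzyme genes of the cluster are close in sequence. Probe sequences were not used here, so signal shared between these probe sets cannot be told apart.

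**Figure D2:**
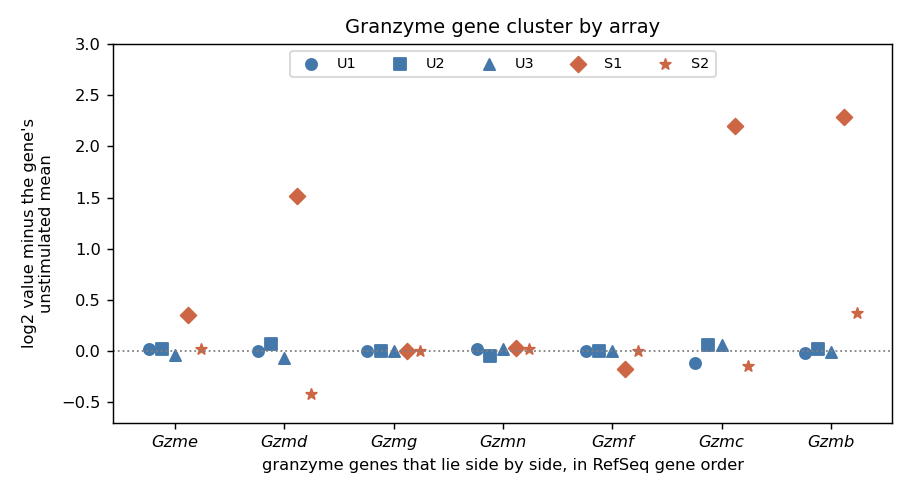
Log2 value minus the gene's unstimulated mean (vertical axis) for the 7 granzyme genes of the chromosome 14 cluster in RefSeq order, on unstimulated arrays U1 to U3 (blue) and stimulated arrays S1 and S2 (orange). S1 stands high for Gzmd, Gzmc and Gzmb, and S2 lies at or below the unstimulated mean for Gzmc and Gzmd.

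The gap between the stimulated arrays was measured for all 19938 genes, a ranking made after the values were seen. Its median size was 0.0794, and 48 genes had a gap over 1, of which 35 were higher on stimulated array 1. Gzmc ranked 2 with 2.34, Gzmd ranked 4 with 1.94, Gzmb ranked 5 with 1.91 and Gzma ranked 6 with 1.57. So 4 of the 6 widest gaps belonged to granzyme genes. The values of Gzmc, Gzmd and Klrd1 on stimulated array 2 were below the first quartile over all probe sets, so the exact size and rank of their gaps are uncertain. The other two were Ifng, which encodes interferon gamma, with 9.80 on stimulated array 1 and 7.43 on stimulated array 2, and Klrd1, which encodes the NK receptor chain CD94, with 6.05 and 3.86. Ifng read 6.30, 6.42 and 5.21 unstimulated. All 6 genes were higher on stimulated array 1. The cut at 6 falls at the last of these granzymes, and no further granzyme was among the 20 widest gaps. Genes of other kinds stood there, such as Mmp12, Mmp13, Il24, Akr1c18, Cenpk, Ncapg and Kif15, also higher on stimulated array 1. Ddah1, Rnu12 and Zfp119b were higher on stimulated array 2. With 2 stimulated arrays the data do not say which of them is typical.

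**Figure D3:**
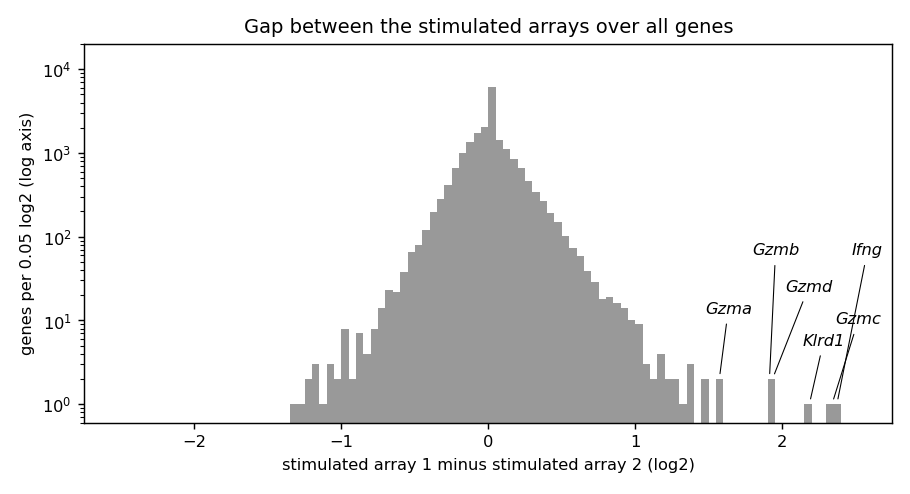
Number of genes (log vertical axis) by the gap between the stimulated arrays, array 1 minus array 2, in log2 units in steps of 0.05 (horizontal axis). The labelled genes have the 6 widest gaps, Gzma at 1.57 to Ifng at 2.37, where the median size over all genes is 0.0794.

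Granzyme A (probe set 10412211), a tryptase and one of the most abundant granzymes of NK cells, read 7.34, 7.48 and 5.40 unstimulated and 6.86 and 5.29 stimulated. In each group 1 array lay well below the others, and the groups overlapped. The means were 6.74 ± 1.16 (SD, n = 3) and 6.08 ± 1.11 (SD, n = 2). The difference of -0.66 ± 0.95 (SE, 95% interval -3.40 to 2.08, limma adjusted p = 0.696) was smaller than the spread within either group. It turned to 0.12 without stimulated array 2 (adjusted p = 1.0). In a fit chosen after seeing the data that kept unstimulated array 3 as the lone unstimulated one, which is then assumed to vary like the stimulated arrays, it was 0.68 (adjusted p = 0.829). The unstimulated range of 2.08 ranked 53 among all genes.

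Some markers of NK and T cells varied with granzyme A across the arrays. Klrd1 read 6.83, 7.44 and 5.67 unstimulated, then 6.05 and 3.86 stimulated, in the same array order within each group. Cd3d, a chain of the T cell receptor complex, read 8.25, 8.65 and 6.47, then 7.68 and 6.75, again with unstimulated array 3 and stimulated array 2 low. Of the 15 measured NK genes, 7 followed this order (unstimulated arrays 1 and 2 above array 3, and stimulated array 1 above array 2), as did 4 of 12 T cell genes. The order was also followed by 3 of 6 B cell, 4 of 11 macrophage and dendritic cell and 3 of 11 neutrophil genes. It was followed by 3 of 13 ILC2 genes, 2 of 10 lung epithelial genes and 0 mast cell, basophil or endothelial and stromal genes. In the related lists below it held for 4 of 12 death ligand and receptor genes, 4 of 17 transcription factors and 2 of 20 granule release genes. Of all genes 9.52% followed it, a share lowered by genes with equal values on the stimulated arrays, which cannot. The summed linear level of the NK genes was 832 to 1289 unstimulated and 560 to 767 stimulated, and that of the T cell genes was 2974 to 4479 and 2805 to 3243. Bright genes weigh most in such sums, such as Tyrobp in the first list and Cd3g and Lat in the second. No gene of either list passed the test, where 1.70% of all genes passed in either direction. Eomes and Tbx21 of the NK genes also stand in the list of transcription factors. Of the 15 NK genes, 3 (Klrb1c, Klre1 and Klra8) lay under the first quartile of all values on all arrays. Ncr1 read 4.62, 4.28 and 5.12 unstimulated and 4.62 on both stimulated arrays. It was thus highest on unstimulated array 3 and did not follow the order of Gzma. Other NK genes lay above that quartile on all arrays, such as Itga2, Klrk1, Tyrobp and Cd160. In 2 of the 15 both stimulated arrays lay above all unstimulated ones, and in 4 below, against 18.6% and 14.0% of all genes. For the 12 T cell genes these counts were 2 (Cd28 and Zap70) and 3. Itga2 read 6.70 to 7.37 unstimulated and 5.66 and 5.99 stimulated. Cd160 read 5.55 to 5.78 unstimulated and 7.14 and 6.44 stimulated. Cd3e read 7.41 to 8.70 and 6.9995 to 7.46. Cd3g read 10.21, 10.56 and 10.24 unstimulated, then 9.78 and 9.43, and did not follow the order. Most of the T cell genes did not. The sort for lineage-negative cells is meant to leave out mature cells of other lineages, but the labels do not list the markers used. The part of other cells in the granzyme values was not tested. In such bulk samples fewer cells of a type and less RNA per cell cannot be told apart.

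**Figure D4:**
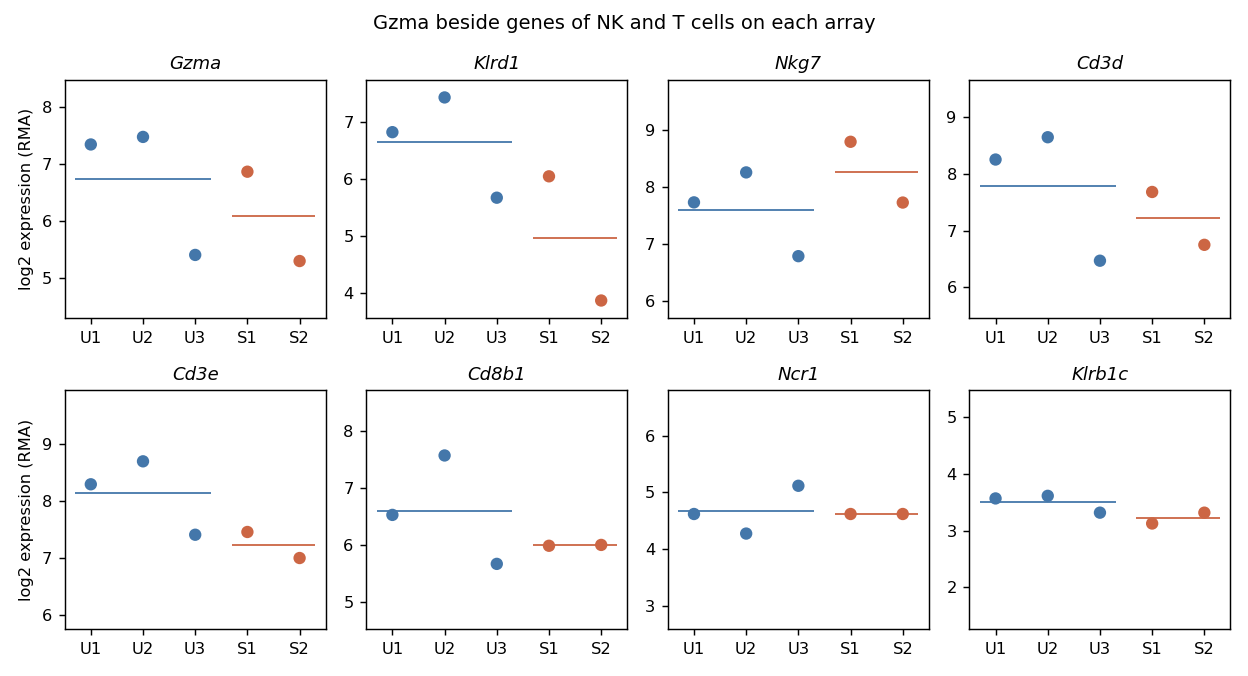
Log2 values (vertical axis) of Gzma and 7 granule, NK and T cell genes, chosen after their values were seen, on unstimulated arrays U1 to U3 (blue) and stimulated arrays S1 and S2 (orange). Gzma, Klrd1, Nkg7 and Cd3d lie lower on U3 than on U1 and U2 and lower on S2 than on S1. Ncr1 stays between 4.28 and 5.12, is highest on U3 and is equal on S1 and S2.

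Granzyme K (probe set 10412218), a tryptase whose gene RefSeq places next to Gzma on chromosome 13, held 1 value, 4.77, on all 5 arrays. The values were equal to 5 decimals, as for 6.54% of all genes, while Gzma varied widely on the same arrays. Granzyme M (probe set 10364460), a protease that cuts after methionine and leucine, read 5.48, 5.25 and 5.34 unstimulated and 5.24 and 5.25 stimulated. The highest and the lowest of these values are 0.23 apart within the unstimulated group alone. Its difference was -0.11 ± 0.08 (SE, 95% interval -0.34 to 0.12, limma adjusted p = 0.475).

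Fas ligand (probe set 10359434) read 5.81, 5.81 and 5.0006 on the unstimulated arrays and 7.10 and 7.12 on the stimulated ones. Unlike for granzymes B and C, the 2 stimulated values were nearly the same, and the low array was an unstimulated one. The means were 5.54 ± 0.47 (SD, n = 3) and 7.11 ± 0.01 (SD, n = 2). The difference was 1.57 ± 0.32 (SE, 95% interval 0.65 to 2.48), or 2.96-fold, and did not pass in limma (adjusted p = 0.112). Without unstimulated array 3 it was 1.30 with an adjusted p of 0.0360 in limma, but the 2 unstimulated arrays left then hold the same deposited value, 5.80983, and so have no spread of their own.

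The 3 genes whose values lay closest to those of Fasl over the 5 arrays, each gene centred on its own mean, were Cd28, Lclat1 and Ptpn4. Cd28, a costimulatory receptor, is also in the T cell list above. It read 8.14, 8.11 and 7.08 unstimulated and 9.19 and 9.22 stimulated, at a root mean square distance of 0.112. Lclat1, an acyltransferase of lipid metabolism, lay at 0.155 with a difference of 1.76. Ptpn4, a tyrosine phosphatase, lay at 0.157 with a difference of 1.54. Fas, the receptor, read 8.04, 7.80 and 5.74 unstimulated and 6.94 and 6.79 stimulated, with groups that overlapped.

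Serpins restrain granzymes inside the cell. Of 5 measured serpins that include granzyme inhibitors, 2 rose and 0 fell, where 0.737% of all genes rose. In 4 of the 5 the stimulated arrays lay above all unstimulated ones, against 18.6% of all genes, and the median difference was 1.02. Serpinb9, the inhibitor that protects killer cells from their own granzyme B, read 6.06, 6.37 and 6.07 unstimulated and 9.001 and 8.88 stimulated. It rose 6.85-fold, by 2.78 ± 0.12 (SE, 95% interval 2.42 to 3.13, limma adjusted p = 0.0229), and its stimulated values lay close together. Serpinb6b, a related intracellular serpin, read 7.48, 7.94 and 7.61 unstimulated and 9.79 and 9.59 stimulated. It rose 4.04-fold, by 2.01 ± 0.18 (SE, 95% interval 1.51 to 2.52, adjusted p = 0.0442). Serpinb1a, Serpinb6a and Serpinb9b differed by 1.02, 0.42 and -0.05 and did not pass.

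Of 20 measured genes of granule transport and release, 0 rose and 1 fell, where 0.737% of all genes rose and 0.963% fell. The median difference was 0.07. Sytl2, which helps Rab27a dock granules at the membrane, read 8.14, 8.40 and 8.21 unstimulated and 5.55 and 5.60 stimulated. It fell by 2.68 ± 0.09 on the log2 scale (SE, 95% interval -2.94 to -2.41, limma adjusted p = 0.0225), or 6.40-fold. Of 10 measured genes for granule membrane and cargo proteins, 1 rose and 0 fell, beside the same shares of all genes, with a median of 0.07. Calr, which encodes calreticulin, a chaperone also found in granules, read 9.74 to 9.85 unstimulated and 10.32 and 10.40 stimulated and rose by 0.56 ± 0.05 (SE, adjusted p = 0.0426).

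Neither granzyme processing nor serglycin chain synthesis held a gene that passed, where 1.70% of all genes passed in either direction. Among 10 genes for cathepsins and their regulators the median difference was 0.06. Cst7, which encodes cystatin F, an inhibitor of the cathepsin that activates granzymes, read 7.87, 8.53 and 7.91 unstimulated and 9.95 and 9.02 stimulated, a difference of 1.38 ± 0.41 (SE, limma adjusted p = 0.195). Ctsw, a cathepsin of NK and cytotoxic T cells, read 7.18, 8.19 and 7.10 against 6.09 and 6.17, a difference of -1.36 ± 0.41 (SE, adjusted p = 0.205). In both, the groups did not overlap. Among 13 genes that build the sugar chains of serglycin the median was 0.03, and Chsy1 and Csgalnact1 had the largest differences, 0.66 (adjusted p = 0.174) and -0.60 (adjusted p = 0.233).

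A further list held 12 measured genes, death ligands and receptors together with Fadd, Casp8, Cflar and Bid, which are neither. Of the 12, 0 passed, where 1.70% of all genes passed in either direction. The median difference was -0.10. Ltb, which encodes lymphotoxin beta, read 8.26, 9.14 and 9.48 unstimulated and 7.88 and 7.45 stimulated, a difference of -1.30 ± 0.45 (SE, limma adjusted p = 0.250). Tnfsf10, which encodes the death ligand TRAIL, read 7.55, 7.51 and 7.97 against 8.63 and 8.79, a difference of 1.04 ± 0.18 (SE, adjusted p = 0.0937). It was higher on both stimulated arrays and did not pass, but it passed among genes above the median (adjusted p = 0.0386), with arrays centred on their medians (0.0443), after quantile normalization (0.0438) and without genes that hold 1 value on all arrays (0.0454).

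Of 17 measured transcription factors listed for cytotoxic lymphocytes, 1 rose and 2 fell, where 0.737% of all genes rose and 0.963% fell. The median difference was -0.03. In 5 of the 17 both stimulated arrays lay above all unstimulated ones and in 5 below, against 18.6% and 14.0% of all genes. Irf4, a factor induced by antigen receptor signals, read 6.65, 7.08 and 6.97 unstimulated and 10.03 and 10.26 stimulated and rose by 3.25 ± 0.17 (SE, limma adjusted p = 0.0271). Bhlhe40 read 9.67 to 9.93 unstimulated and 7.85 and 8.08 stimulated and fell by 1.85 ± 0.12 (SE, adjusted p = 0.0323). Id2, which innate lymphoid and NK cells need to develop, read 10.55 to 10.65 and then 9.87 and 9.76 and fell by 0.78 ± 0.05 (SE, adjusted p = 0.0352).

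**Figure D5:**
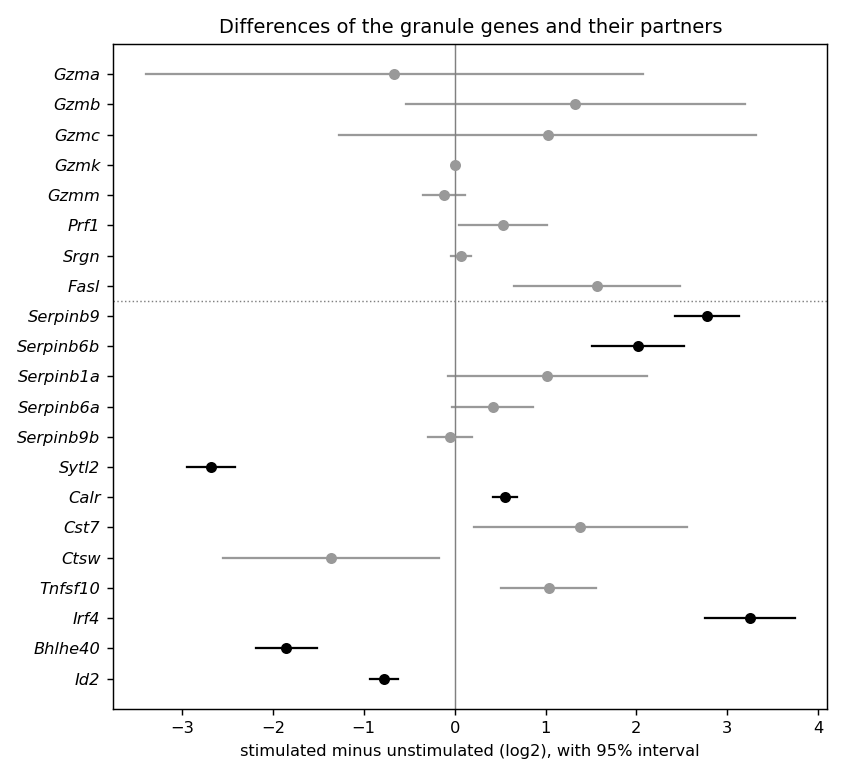
Difference, stimulated minus unstimulated in log2 units (horizontal axis), with its 95% interval, for the 8 granule genes (above the dotted line) and for 13 genes of the related lists, black where called and grey where not. Serpinb9 at 2.78, Serpinb6b at 2.01, Calr at 0.56, Irf4 at 3.25, Sytl2 at -2.68, Bhlhe40 at -1.85 and Id2 at -0.78 are black, and the 8 granule genes are grey.

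When each array was left out in turn, the differences of these 7 genes of the related lists moved little. They were 2.72 to 2.88 for Serpinb9, 1.91 to 2.15 for Serpinb6b, 0.52 to 0.60 for Calr, 3.12 to 3.37 for Irf4, -2.73 to -2.60 for Sytl2, -1.96 to -1.74 for Bhlhe40 and -0.83 to -0.72 for Id2. None of the 7 passed in limma without unstimulated array 1 (adjusted p = 0.0714 to 0.108), array 2 (0.0838 to 0.127) or array 3 (0.0541 to 0.0918). Without array 1, 2 genes in all were called higher and 5 lower, and without array 2 none was (3024 genes at an unadjusted p under 0.05), so these fits say little about single genes. Fits that leave out a stimulated array have a lone stimulated array and take their spread from the unstimulated arrays only. For these only the differences are read, which lie within the ranges above. Under robust variances in limma, Serpinb6b (adjusted p = 0.0608), Calr (0.0591) and Id2 (0.0504) no longer passed.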

How the data were processed

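Per the submitters' processing notes, the deposited log2 expression values came from RMA (robust multi-array average). Its version and the arrays normalized together are not given in the sources used here, nor is a genome build, so no coordinate of a probe set is given. For 62.0% of genes, at least 2 arrays have the same deposited value to 5 decimals, which lowers the spread that limma sees for them. The table had 35556 probe sets, of which 21789 named 1 symbol, 1621 several and 12146 none. For 999 genes with several probe sets, the one with the highest mean was used. Groups came from the sample titles. All 19938 genes were fitted by lmFit and eBayes of limma 3.58.1, run in R 4.3.3, with no covariate, and called at a Benjamini-Hochberg adjusted p under 0.05. The step was run on simulated data with independent noise and the same spread in both groups. That check does not cover shared values or unequal spreads, such as the SDs of Gzmb, 0.02 unstimulated and 1.35 stimulated. An exact permutation test of 3 against 2 arrays cannot go below 0.1 and was not used. The number of arrays limits the precision. There were no columns of other samples.

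The members and lists were chosen with earlier results of these data known. The genes named are all 8 members, each further list's called genes (at most 4) or, where none was called, its 2 with the largest difference, and the 3 genes most like the member that differed most. Other genes were named after their values were seen. Alternatives covered variance settings, array weights, filters, normalizations, probe set summaries, a block for the replicate number, and fits that leave out arrays. Figures used Python 3.11.15 with matplotlib 3.10.9.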

Additional observations from a re-analysis of the deposited data

How the results depend on the processing

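No granule gene was called in most alternatives. Fasl was called among genes above the median, a filter it met only through its stimulated arrays, and without unstimulated array 3, where the 2 unstimulated arrays left hold the same value (1 gene higher each). Gzmb and Gzmc were called without stimulated array 2 (2 genes higher), where the lone stimulated array is assumed to vary like the unstimulated ones. Leaving out an array thus gave 0 to 2, and none of these calls shows that the change is stable. When each array was left out in turn, the difference of Gzmc was -0.15 to 2.20 and that of Gzmd -0.42 to 1.52, both lowest without stimulated array 1, and that of Gzma was -1.45 to 0.12, highest without stimulated array 2. With unstimulated array 3 as the lone one, that of Gzma was 0.68.

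Against 147 genes higher and 192 lower (43.4% higher), robust variances gave 45 and 66, genes above the lower quartile 317 and 351, genes above the median 824 and 716 (53.5% higher), centring arrays on their medians 660 and 526 (55.6% higher), and quantile normalization 825 and 729. Leaving out an array gave 0 to 361 higher and 0 to 413 lower. An adjusted p under 0.01 gave 0 and 0, from the same limma fit with 3973 genes at an unadjusted p under 0.05. Chosen after seeing the data, dropping genes with 1 value on all arrays gave 670 and 627, and unstimulated array 3 as the lone unstimulated one gave 0 and 0 in limma (3739 genes at an unadjusted p under 0.05). Without unstimulated array 2, limma gave 0 and 0, with 3024 such genes.

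The replicate number as a block gave 0 higher and 0 lower in limma, with 3568 genes at an unadjusted p under 0.05. Deviations of same-numbered arrays from their group means correlated at r = -0.14 and -0.06. With 2 stimulated arrays these deviations mirror each other, so the correlations cannot show whether same-numbered arrays are paired. The labels do not say so either. The table used holds no detection calls, so signal over background limits what can be said of Gzmc, Gzmd and Gzmk.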
